A study of Mus musculus with 12 samples.

Results

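Broad H3K4me3 domains that were present in every library of mouse small-intestinal epithelium are described here. Peaks of 8 lists were merged wherever they overlapped or touched, and an autosomal merged region was taken as a broad region if peaks covered at least 2000 bp of it in each of the 8 libraries. This gave 475 broad regions out of 24352 merged regions, 8651 of which were autosomal and called in all 8 libraries. The remaining 8176 of those are called the other regions below. The members were chosen by covered length, the summed length of a library's peaks within a region, so their length and their high rank are a description and were not tested.

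H3K4me3 is the trimethylation of lysine at the tail of histone H3 that methyltransferases of the SET1 and MLL families place at promoters, mainly those with many CpG sites. At most promoters it spans the nucleosomes around the start site, and at some genes it spreads far into the gene body. In other tissues such broad domains are known for their frequent occurrence at genes of cell identity and for active, steady transcription. The build of the files is mm9, and no gene annotation or genome of that build was used here, so that regions are given by mm9 position without gene names, and the labelled cell types were not checked against marker genes.

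Chromatin immunoprecipitation with sequencing was used to measure the mark in 4 groups of 2 libraries each. Embryonic epithelium of E12.5 and of E14.5 was obtained by sorting cells that were positive for EpCAM but lacked the endothelial marker CD31 and the leukocyte marker CD45. ISC are adult intestinal stem cells sorted for high Lgr5-EGFP, and enterocytes were sorted with the same 3 surface markers as the embryonic cells, with no use of EGFP stated, both from males of postnatal day 60 that carry an Lgr5-EGFP-Cre-ERT allele, in which EGFP reports the stem-cell receptor Lgr5. All mice were of mixed C57BL/6 and CD1 background. The sex of the embryos and any pooling of animals are not given in the labels. Libraries of a group are biological duplicates by the series' design text, and both were compared with the same input.

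Libraries held between 12821255 tags (enterocyte replicate 1) and 43259380 tags (E14.5 replicate 1), and the lists held 11111 to 17658 peaks. The E12.5 lists were the narrowest and the E14.5 lists the widest: the factor that equalizes the median covered length of regions called in all 8 libraries was 0.720 and 0.840 in E12.5 libraries, 1.25 and 1.28 in E14.5 libraries, 0.942 and 1.11 in ISC libraries, and 0.927 and 1.07 in enterocyte libraries (replicates 1 and 2). In E12.5, ISC and enterocytes the deeper library was the wider. The second replicates of E12.5, E14.5 and enterocytes had 22696869, 22718162 and 22137910 tags, and the broad regions had median covered lengths of 2761, 3648 and 3104 bp in them. These libraries also differed in input depth (38159421, 41831672 and 28191210 tags) and in the fragment length MACS estimated (159, 132 and 158 bp), and the part of each in the width was not tested.

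Broad regions were about 2 to 3 times as long as the other regions in each library. Their median covered length was 2614 and 2761 bp in E12.5 libraries, 3607 and 3648 bp in E14.5 libraries, 2955 and 3291 bp in ISC libraries, and 2839 and 3104 bp in enterocyte libraries. The other regions had medians of 946 and 1113 bp, 1670 and 1709 bp, 1255 and 1483.5 bp, and 1228.5 and 1421 bp in the same order. Merged over all libraries, broad regions spanned 2530 to 12458 bp with a median of 3914 bp, against a median of 1952 bp for the other regions. The part covered in all 8 libraries at once, the common core, had a median of 2224 bp and took up a median of 61.1% of the merged region (quartiles 50.2% and 68.8%). In the other regions the core had a median of 754 bp and took up 40.7%. The core alone reached 2000 bp in 380 of the 475 broad regions.

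**Figure D1:**
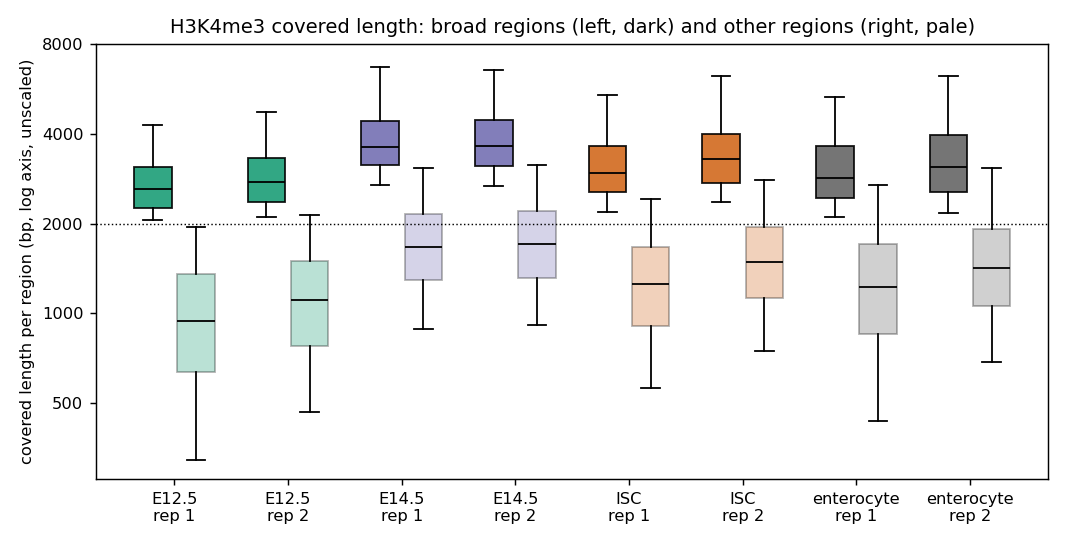
Covered length per region in each library, in bp on a log axis and unscaled, for the 475 broad regions (left, dark) and the 8176 other autosomal regions called in all 8 libraries (right, pale). Boxes show quartiles and median, whiskers the 5th and 95th percentiles, and the dotted line the 2000 bp minimum; both kinds of region are shortest at E12.5 and longest at E14.5.

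The minimum was set most often by the embryonic day with the narrowest lists. The library with the shortest coverage was an E12.5 library for 289 broad regions, an enterocyte library for 143 and an ISC library for 43, and it was never an E14.5 library. Without E12.5 replicate 1, 635 regions met the rule in the remaining 7 libraries. A further 298 autosomal regions reached 2000 bp in all 6 libraries of the other groups and in neither E12.5 library, and 66 did so in neither enterocyte library. For ISC there was 1 such region and for E14.5 there were 0. The members just inside the minimum were on chromosome 16 from 18875429 to 18878938 (lowest value 2002 bp, in enterocyte replicate 1), chromosome 11 from 87860095 to 87863282 (2003 bp, enterocyte replicate 1) and chromosome 18 from 61714030 to 61718163 (2003 bp, E12.5 replicate 1). Just outside lay regions on chromosome 19 from 5387671 to 5390313 (1998 bp, E12.5 replicate 2), chromosome 2 from 27328999 to 27332209 (1997 bp, ISC replicate 1) and chromosome 11 from 69777903 to 69782378 (1997 bp, E12.5 replicate 2).

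Nearly every region that was long at E12.5 was also long at E14.5. At least 2000 bp was covered in both libraries of a group at 743 autosomal regions at E12.5, 3094 in E14.5 libraries, 1541 in ISC libraries and 1811 in enterocyte libraries. Of the 743 regions of E12.5, 98.9% were also long at E14.5, 83.2% in ISC libraries and 65.7% in enterocyte libraries. The 475 broad regions were therefore 63.9% of the long regions of E12.5, 15.4% of those of E14.5, 30.8% of those of ISC and 26.2% of those of enterocytes. With covered length divided by the library factors, 1664 regions were long at E12.5, of which 64.4% were also long at E14.5, 57.8% in ISC libraries and 49.6% in enterocyte libraries.

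The 6 widest broad regions are labelled R1 to R6 by their median over the 8 libraries, and none of them had its longest coverage at E12.5. R1, on chromosome 5 from 143573160 to 143585617, was covered over 9272 and 9949 bp in E12.5 libraries, 10459 and 10952 bp in E14.5 libraries, 10120 and 10913 bp in ISC libraries, and 11000 and 12061 bp in enterocyte libraries. It was a single peak in every library, the widest of the 8651 regions in 5 of the 8 and at rank 2 to 4 in the rest. R5, on chromosome 18 from 64497282 to 64508519, was also 1 peak throughout. It was covered over 6641 and 7923 bp in E12.5 libraries, 10576 and 11190 bp in E14.5 libraries, 7622 and 8182 bp in ISC libraries, and 7557 and 8469 bp in enterocyte libraries, and its E14.5 libraries were above all others.

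R2, on chromosome 18 from 11047479 to 11059933, had 4469 and 5704 bp in E12.5 libraries, 12005 and 11699 bp in E14.5 libraries, 9327 and 10473 bp in ISC libraries, and 8650 and 10010 bp in enterocyte libraries. Its E12.5 libraries lay below all 6 others, and it ranked 21 and 15 there but 3 or better in the other 6. R3, on chromosome 5 from 123584625 to 123595114, had 5426 and 5632 bp in E12.5 libraries, 9559 and 9356 bp in E14.5 libraries, 6221 and 10135 bp in ISC libraries, and 7887 and 10324 bp in enterocyte libraries. R4, on chromosome 5 from 148110713 to 148120215, had 4066 and 6571 bp in E12.5 libraries, 9024 and 9182 bp in E14.5 libraries, 7418 and 9313 bp in ISC libraries, and 5585 and 8923 bp in enterocyte libraries. R6, on chromosome 8 from 129110491 to 129119985, had 4497 and 3951 bp in E12.5 libraries, 9040 and 9495 bp in E14.5 libraries, 6983 and 9337 bp in ISC libraries, and 5312 and 7980 bp in enterocyte libraries. In R3, R4 and R6 the shallower library of each adult group was the shorter, and it was split into 2 peaks where the deeper library had 1.

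**Figure D2:**
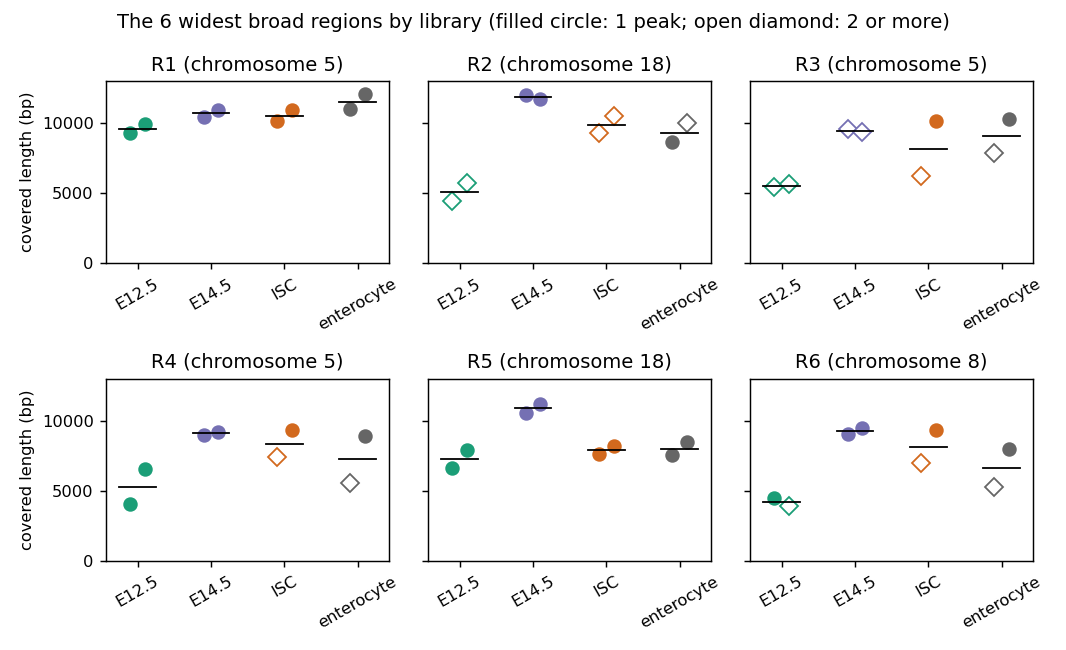
Covered length in bp, unscaled, of the 6 widest broad regions in each of the 8 libraries, with a black line at the mean of each group of 2. Filled circles are libraries in which the region was 1 peak and open diamonds those in which it was 2 or more; R1 and R5 were 1 peak in every library, and R2 to R4 and R6 were split in some.

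Beyond R1 and R5, the widest of the 387 regions that were 1 peak in all libraries were on chromosome 14 from 58688934 to 58696452 and chromosome 17 from 71195598 to 71203713. The chromosome 14 region was almost constant in bp, with 6470 and 6530 bp in E12.5 libraries, 7262 and 7492 bp in E14.5 libraries, 6605 and 6530 bp in ISC libraries, and 6634 and 6768 bp in enterocyte libraries. Its common core of 6171 bp made up 82.1% of the merged region. The chromosome 17 region had 6080 and 5822 bp in E12.5 libraries, 6911 and 6879 bp in E14.5 libraries, 6773 and 8116 bp in ISC libraries, and 5149 and 5744 bp in enterocyte libraries, the enterocyte libraries being the shortest.

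Broad regions kept a high rank in every library, though less so in enterocytes. By covered length among the 8651 autosomal regions called in all 8 libraries, their median percentile was 96.7 and 96.3 in E12.5 libraries, 95.3 and 95.3 in E14.5 libraries, 95.5 and 95.0 in ISC libraries, and 93.3 and 92.7 in enterocyte libraries. The lowest-ranked member was at the 90.6th percentile in E12.5 replicate 1 and at the 74.3rd in enterocyte replicate 2. Of the 475 widest regions of each library, 338 and 315 were broad regions at E12.5, 269 and 264 in E14.5 libraries, 280 and 251 in ISC libraries, and 203 and 186 in enterocyte libraries. The minimum in bp, which few regions reach at E12.5, fixes part of this order. Exactly 110 regions were among the 475 widest of all 8 libraries, and 100 were among the widest 5% of each. The rule makes each of these a broad region, since every library had more than 475 of the 8651 regions at 2000 bp or more.

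The order of the broad regions by length was least alike between E12.5 and enterocytes, and the E12.5 replicates were less alike than the other replicate pairs. Spearman's rho of covered length across the 475 regions was 0.74 between the E12.5 replicates, 0.94 between those of E14.5, 0.88 in ISC libraries and 0.86 in enterocyte libraries. Between groups the mean rho was 0.82 for E14.5 and ISC, 0.73 for ISC and enterocytes, 0.71 for E12.5 and E14.5, 0.67 for E12.5 and ISC, 0.66 for E14.5 and enterocytes, and 0.50 for E12.5 and enterocytes. The E12.5 replicates were thus also less alike than E14.5 and ISC. These are descriptions over regions, which are not replicates, and libraries of a group share an input.

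Relative to the library factors, broad regions varied less between libraries than the other regions. The coefficient of variation of scaled covered length over the 8 libraries had a median of 14.9% in broad regions (quartiles 12.2% and 17.8%) and of 18.3% in the other regions (13.5% and 26.3%). The minimum in every library limits this spread. The smallest was 3.21%, on chromosome 8 from 35867904 to 35874514, which had 3597 and 4078 bp in E12.5 libraries, 6316 and 6611 bp in E14.5 libraries, 4587 and 5300 bp in ISC libraries, and 4850 and 5276 bp in enterocyte libraries. Its coverage thus followed the factors closely. The next were on chromosome 12 from 81209823 to 81218162 (3.93%), chromosome 8 from 47824081 to 47827985 (5.28%) and chromosome 11 from 69391280 to 69395891 (6.04%). The 4 largest were 43.3% on chromosome 8 from 118225906 to 118233698, 38.9% on chromosome 17 from 88035115 to 88042485, 38.5% on chromosome 17 from 6980585 to 6988401 and 38.4% on chromosome 1 from 173367537 to 173373344. All of these last had their longest coverage in enterocytes, as the values given below show.

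Most broad regions were a single unbroken peak. Exactly 387 of the 475 were 1 peak in all 8 libraries, 88 were split into 2 or more peaks in at least 1 library, and 2 were split in all 8. The share split was 8.00% and 10.3% in E12.5 libraries, 2.53% and 4.21% in E14.5 libraries, 6.32% and 5.68% in ISC libraries, and 7.79% and 5.68% in enterocyte libraries. No region had more than 3 peaks in a library. The summed gap in a split region had a median of 642.5 to 1189 bp, depending on the library, and the widest piece held a median of 67.6% to 82.5% of the covered length. Among the 8176 other regions only 0.575% to 1.28% were split, but these were shorter. Where other regions of the same length class of 1000 bp in the same library were used, 3.14% and 4.83% of them were split at E12.5, 4.06% and 5.78% in E14.5 libraries, 7.47% and 6.00% in ISC libraries, and 4.46% and 5.11% in enterocyte libraries. The broad regions with such a match stood at 7.10% and 10.4%, 2.17% and 3.83%, 6.33% and 5.53%, and 7.84% and 5.53% in that order. These shares were higher than those of the matches in both E12.5 and both enterocyte libraries and lower in the E14.5 and ISC libraries. Set instead against all other regions of at least 2000 bp in that library, the share of broad regions split was the higher in all 8 libraries. Those other regions were split at 1.79% and 4.11% in E12.5 libraries, 1.26% and 2.53% in E14.5 libraries, 4.55% and 2.78% in ISC libraries, and 3.56% and 3.69% in enterocyte libraries. None of these differences was tested, and E12.5 replicate 1 and enterocyte replicate 1 are among the 3 shallowest libraries. ISC replicate 1, the other of these 3, was below its matches. E12.5 replicate 2, with the highest share split, held 22696869 tags, and E14.5 replicate 2 held 22718162.

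**Figure D3:**
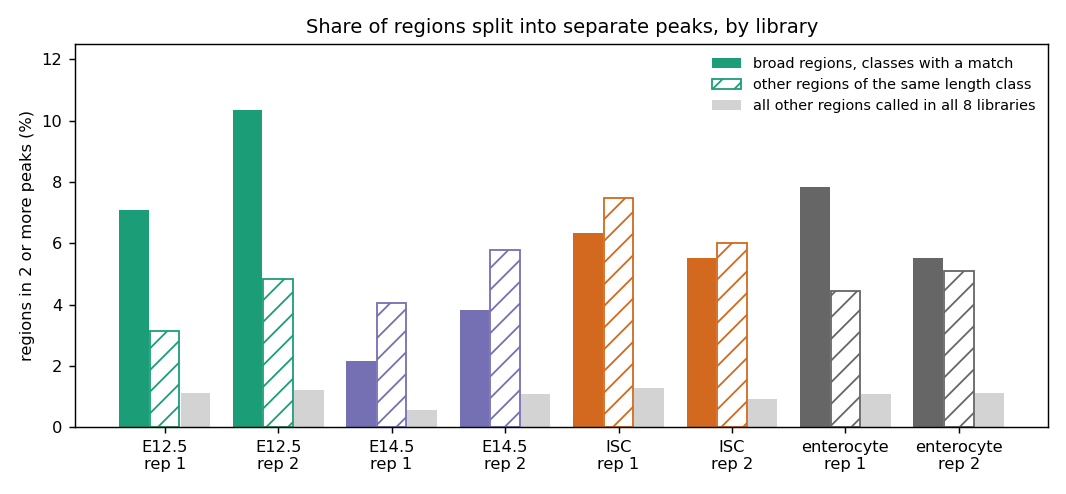
Percent of regions made of 2 or more separate peaks in each library, for broad regions in length classes with a match (filled), other regions of the same 1000 bp length class (hatched) and all 8176 other regions (grey). Broad regions reach 10.4% in E12.5 replicate 2 and 2.17% in E14.5 replicate 1, and the grey bars stay at or below 1.28%.

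Splits were shared by libraries at many regions, but 39 of the 88 split regions were split in exactly 1 library. Of the 60 regions split in any E12.5 library, 27 were split in both. Likewise 11 of 21 were split in both libraries at E14.5, 17 of 40 in ISC libraries and 19 of 45 in enterocyte libraries. The regions split in all 8 libraries were on chromosome 11 from 68933737 to 68940044, with 2 peaks in each, and on chromosome 5 from 32435161 to 32442780, with 3 peaks in E12.5 replicate 2 and 2 in the others. The most peaks per library, on average 2.125, were in that chromosome 5 region and in the region on chromosome 12 from 58639187 to 58649143. The chromosome 12 region had 2 and 2 peaks at E12.5, 1 and 2 in E14.5 libraries, 2 and 2 in ISC libraries, and 3 and 3 in enterocyte libraries. An average of 2 peaks was shared by 4 regions, the chromosome 11 region among them. The others were on chromosome 15 from 35225343 to 35232733, with 1 to 3 peaks, chromosome 14 from 63858108 to 63868800, which was 1 peak of 10693 and 9958 bp in the E14.5 libraries and 2 or 3 peaks in the other 6, and chromosome 12 from 25777266 to 25786173, with 1 to 3 peaks.

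Splits confined to both libraries of a single group were few. At 3 regions both E12.5 libraries had 2 peaks and the other 6 had 1: chromosome 10 from 126723944 to 126729810, with gaps of 1540 and 1559 bp, chromosome 11 from 69391280 to 69395891, with 1163 and 1071 bp, and chromosome 7 from 29593234 to 29598438, with 880 and 721 bp. At chromosome 1 from 173367537 to 173373344 the E14.5 libraries alone had 2 peaks, with gaps of 1664 and 1290 bp. At chromosome 16 from 4556621 to 4561028 (gaps of 1613 and 887 bp) and chromosome 17 from 84580152 to 84588326 (3129 and 1934 bp) the enterocyte libraries alone were split. Exactly 1 region, on chromosome 1 from 138124916 to 138131382, had 2 peaks in all 4 adult libraries and 1 in all 4 embryonic ones, and 0 regions showed the opposite. The reverse, a single peak in both libraries of 1 group and 2 or more in the other 6, was seen for E14.5 on chromosome 2 from 29916772 to 29924153, chromosome 14 from 63858108 to 63868800 and chromosome 17 from 24855602 to 24861460, and for enterocytes on chromosome 11 from 87403723 to 87409864. The regions of these patterns were chosen after their values were seen.

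Broad regions were also strong, with a higher median rank by fold enrichment than the other regions in every library. This rank is taken within a library's whole peak list. It is not compared with the rank by length, which depends on the rule. The authors' fold enrichment of a region's strongest peak, ranked within its own list, had a median percentile of 71.8 and 78.8 in E12.5 libraries, 85.1 and 87.9 in E14.5 libraries, 74.7 and 83.3 in ISC libraries, and 58.3 and 77.0 in enterocyte libraries. For the other regions the medians were 57.3 and 65.2, 71.3 and 73.6, 65.3 and 70.3, and 56.9 and 72.0 in the same order. In enterocyte replicate 1 both kinds of region were thus within 2 percentile points. Single members ranked as low as the 4.63rd percentile there and the 7.07th in E12.5 replicate 1. The median fold of broad regions was 5.23 and 6.67 in E12.5 libraries, 11.8 and 16.7 in E14.5 libraries, 6.72 and 9.50 in ISC libraries, and 5.41 and 9.52 in enterocyte libraries. Enrichment over the input was therefore highest where coverage was longest. Its part in the length was not tested.

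Between E14.5 and E12.5 epithelium, which asks how the mark changes as the embryonic gut epithelium matures, broad regions were longer at E14.5 in bp. The group mean was longer at 474 of 475 regions, by a median of 873 bp, and at 465 regions both E14.5 libraries were above both E12.5 libraries, with the opposite at 1. The other regions did the same, with 96.6% longer and 0.0612% shorter in both E14.5 libraries. Both outer edges lay further out in each E14.5 library than in each E12.5 library at 400 broad regions, 84.2% of them, and further in at 0, against 85.4% and 0.0245% of the other regions. The median shift was 364 bp at the left edge and 364.5 bp at the right edge of broad regions, and 280 and 285 bp in the other regions.

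Relative to the library factors the direction turned round. On scaled log2(covered bp + 200), limma called 2 broad regions longer and 64 shorter at E14.5 and left 409 uncalled at an adjusted p of 0.05. Over all 17679 regions tested, 15.2% were called longer and 1.86% shorter. Among the other regions called in all 8 libraries the shares were 3.96% and 2.87%. The median log2 change of the broad regions was -0.28 scaled and 0.38 unscaled, against 0.19 and 0.74 over all regions tested. In the other regions called in all 8 libraries the scaled median was -0.007. Without scaling, 271 were called longer and 0 shorter, and with quantile normalization 4 and 0, so that the sign of this comparison depends on the scaling. Of all 17679 regions tested, 8118 were called in either direction without scaling and 673 with quantile normalization, against 3018 in the main setting. With scaling by library kept, 1 longer and 3 shorter were called when only regions called in all 8 libraries were tested, and 10 and 0 when peaks were limited to those whose −log10 q reached 10. Those filters gave 191 calls among 8903 regions tested and 2043 among 12126. Only 1 of the 64 regions called shorter was shorter in bp. The rule also bears on it, since the E12.5 libraries set the minimum of 289 broad regions.

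Both regions called longer were longer on every scale. The chromosome 10 region from 126723944 to 126729810 was covered over 5411 and 5590 bp in E14.5 libraries, against 2098 and 2122 bp in 2 peaks at E12.5, a log2 change of 0.64 ± 0.11 (SE, limma, adjusted p = 0.0148). The gap seen at E12.5 was closed at E14.5 and in the adult libraries, which had 3827 to 4339 bp. The chromosome 5 region from 32435161 to 32442780 was covered over 5747 and 6852 bp in E14.5 libraries, against 2039 and 2917 bp in E12.5 libraries (log2 change 0.63 ± 0.15, adjusted p = 0.0424). The 4 regions with the largest scaled decrease were close to constant in bp. They were on chromosome 8 from 8658105 to 8662134 (3854 and 3749 bp in E14.5 libraries, 3898 and 3867 bp in E12.5 libraries), chromosome 3 from 143864144 to 143869248 (4779 and 4645 bp, 4413 and 4852 bp), chromosome 5 from 125883750 to 125887961 (3461 and 3761 bp, 2995 and 3898 bp) and chromosome 13 from 44824819 to 44829723 (4718 and 4777 bp, 4398 and 4513 bp). Their log2 changes lay between -0.70 and -0.59, with adjusted p from 0.0062 to 0.0325 by limma. Without E14.5 replicate 1 or replicate 2, 0 broad regions were called in this comparison by limma, at 127 and 96 with an unadjusted p under 0.05, and the adjusted p of these 6 regions was 0.166 to 0.245 and 0.138 to 0.35. Without E12.5 replicate 1, 18 were called and 4 of the 6 missed the threshold (0.0633 to 0.148). Without E12.5 replicate 2, 115 were called and 1 of the 6 missed it (0.0616), and without either enterocyte library 2 did (0.0562 to 0.0605 without replicate 1, 0.0533 to 0.0621 without replicate 2).

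**Figure D4:**
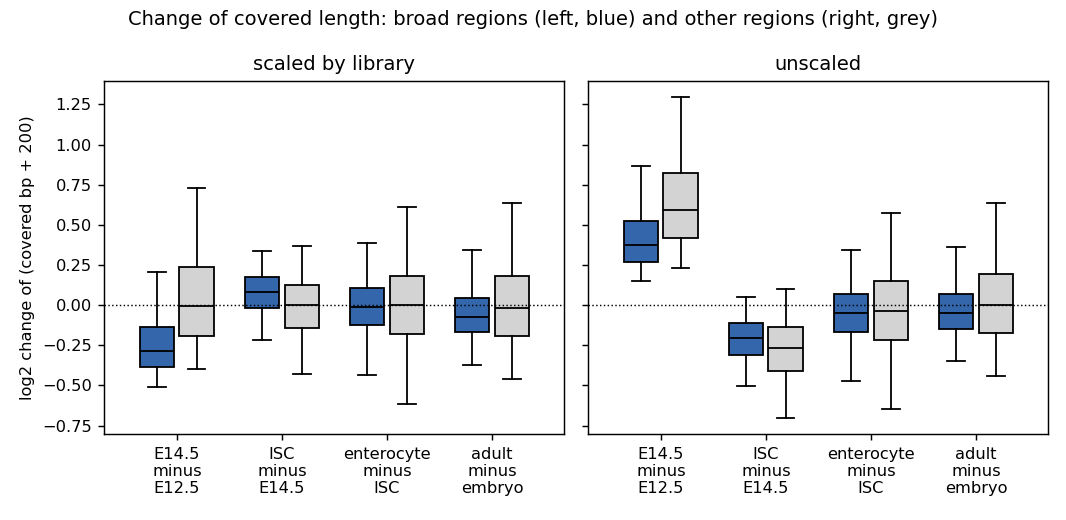
Log2 change of covered bp + 200 in the 4 comparisons, with covered bp scaled by library (left panel) and unscaled (right panel), for the 475 broad regions (blue) and the 8176 other regions (grey). Boxes show quartiles and median and whiskers the 5th and 95th percentiles; the median of the broad regions for E14.5 minus E12.5 stands at -0.28 scaled and 0.38 unscaled, and the other 3 comparisons lie close to 0 after scaling.

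The comparison of adult stem cells with E14.5 epithelium sets the adult stem cell against the embryonic epithelium it derives from. Few broad regions were called after scaling, as was so for the other regions called in all 8 libraries. The minimum in every library also limits the changes that broad regions can show. In bp, 438 of 475 were shorter in ISC, by a median of 484 bp, and at 363 regions both ISC libraries were below both E14.5 libraries, with the opposite at 12. Of the other regions 69.6% and 3.05% did so. Both outer edges lay further in at 227 broad regions (47.8%) and further out at 3, against 38.7% and 0.563% of the other regions. On the scaled values limma called 8 broad regions longer and 2 shorter in ISC, 1.68% and 0.421% of the 475. Over all regions tested 2.87% were longer and 11.9% shorter, and among the other regions called in all 8 libraries 1.20% and 1.05%. Unscaled, the split was 3 longer and 56 shorter, and with quantile normalization 5 and 5. Of all 17679 regions tested, 3327 were called in either direction unscaled and 1432 with quantile normalization, against 2606 in the main setting. With only regions called in all 8 libraries tested, the split was 2 and 0, and with peaks of a −log10 q of at least 10 it was 1 and 0. Those filters gave 42 calls among 8903 regions tested and 1404 among 12126. The median log2 change of broad regions was 0.08 scaled and -0.20 unscaled.

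The regions called longer in ISC were also longer in bp. The chromosome 13 region from 102533254 to 102538993 was covered over 4480 and 5740 bp in ISC libraries, against 2890 and 3126 bp in E14.5 libraries, a log2 change of 1.00 ± 0.15 (SE, limma, adjusted p = 0.0067). Enterocytes had 2156 and 3316 bp there and E12.5 2187 and 2257 bp, so that the ISC libraries were above all others. The chromosome 16 region from 55815818 to 55824222 was covered over 5378 and 6889 bp in ISC libraries, against 3870 and 3831 bp in E14.5 libraries (log2 change 0.92 ± 0.13, adjusted p = 0.0052), and it stayed long in enterocytes. On chromosome 11 from 108781246 to 108789784 there were 6263 and 8539 bp in ISC libraries, against 4853 and 4793 bp in E14.5 libraries (0.87 ± 0.17, adjusted p = 0.0234). On chromosome 1 from 153189546 to 153196798 there were 6574 and 6626 bp in ISC libraries, against 4430 and 4346 bp in E14.5 libraries (0.86 ± 0.14, adjusted p = 0.0116).

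The 2 regions called shorter in ISC lay on chromosomes 2 and 15. The chromosome 2 region from 29916772 to 29924153 was covered over 3645 and 4243 bp in ISC libraries, against 7068 and 7265 bp in E14.5 libraries, a log2 change of -0.54 ± 0.09 (SE, limma, adjusted p = 0.015). It was 1 peak in both E14.5 libraries and 2 peaks in the other 6. The chromosome 15 region from 96469807 to 96473947 was covered over 2300 and 2747 bp in ISC libraries, against 4020 and 4141 bp in E14.5 libraries (log2 change -0.37 ± 0.08, adjusted p = 0.028). Without E14.5 replicate 1 or replicate 2, limma called 0 broad regions in this comparison, with 21 and 14 at an unadjusted p under 0.05, and the adjusted p of the 6 regions named was 0.107 to 0.34 and 0.111 to 0.344. Without ISC replicate 1 only 3 broad regions were called, and 4 of the 6 missed the threshold (0.0573 to 0.118), as 3 did without ISC replicate 2 (0.0599 to 0.102) and the chromosome 15 region without enterocyte replicate 1 (0.0634).

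Between enterocytes and adult stem cells, the comparison of differentiated cells with the cells they arise from, changes went both ways. Of the 475 regions, 183 were longer and 292 shorter in enterocytes by group mean, with a median difference of -105.5 bp. Both enterocyte libraries were above both ISC libraries at 79 broad regions and below both at 150, against 18.7% and 24.6% of the other regions. Both outer edges lay further out in enterocytes at 21 broad regions (4.42%, as among the other regions) and further in at 38 (8.00%, against 7.18%). On the scaled values limma called 9 longer and 7 shorter in enterocytes, 1.89% and 1.47%. Over all regions tested 4.35% were longer and 3.17% shorter, and among the other regions called in all 8 libraries 2.87% and 1.60%. The balance depended on the scaling, with 5 longer and 13 shorter unscaled and 4 and 38 after quantile normalization. Of all 17679 regions tested, 1113 were called in either direction unscaled and 1507 after quantile normalization, against 1330 in the main setting. With peaks of a −log10 q of at least 10, 0 and 1 broad regions were called, and 169 of the 12126 regions tested.

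The largest increase was on chromosome 1 from 173367537 to 173373344 (C1 in the plot by library), with 4894 and 5739 bp in enterocyte libraries, against 2030 and 2736 bp in ISC libraries, a log2 change of 1.14 ± 0.12 (SE, limma, adjusted p = 0.0039). By length it ranked 62 and 55 in enterocyte libraries, against 1441 and 838 in ISC libraries. On chromosome 17 from 6980585 to 6988401 (C2), enterocytes had 6976 and 7233 bp, against 2406 and 4509 bp in ISC libraries (1.10 ± 0.21, adjusted p = 0.0379). That region had 5355 and 5372 bp in E14.5 libraries, between both adult groups. On chromosome 8 from 118225906 to 118233698, enterocytes had 7416 and 7013 bp, against 3624 and 3921 bp in ISC libraries (0.94 ± 0.16, adjusted p = 0.0236). On chromosome 18 from 75525965 to 75535757, enterocytes had 8874 and 9793 bp, against 5162 and 5631 bp in ISC libraries (0.81 ± 0.14, adjusted p = 0.0264), and no other library exceeded 6411 bp.

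Among the regions shorter in enterocytes were 2 of those longer in ISC than at E14.5, comparisons that share the ISC libraries. The chromosome 13 region from 102533254 to 102538993 (C3) had 2156 and 3316 bp in enterocyte libraries, against 4480 and 5740 bp in ISC libraries, a log2 change of -0.83 ± 0.15 (SE, limma, adjusted p = 0.0284). The chromosome 1 region from 153189546 to 153196798 (C4) had 3713 and 3400 bp in enterocyte libraries, against 6574 and 6626 bp in ISC libraries (-0.82 ± 0.14, adjusted p = 0.0279). On chromosome 11 from 87476001 to 87483239, enterocytes had 4033 and 4173 bp, against 6752 and 7239 bp in ISC libraries (-0.70 ± 0.11, adjusted p = 0.0224), and E14.5 had 6439 and 6543 bp, near ISC. On chromosome 4 from 126698010 to 126702770, enterocytes had 2036 and 2094 bp, against 3281 and 3316 bp in ISC libraries (-0.59 ± 0.10, adjusted p = 0.0253).

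Of these 8 regions, C1 alone kept its call with each library left out in turn. Without a single E12.5 library 4 of the 8 missed the threshold (adjusted p up to 0.077 without replicate 1 and 0.0748 without replicate 2), without an E14.5 library 5 (up to 0.0822 and 0.0811), without ISC replicate 1 6 and replicate 2 4 (up to 0.105 and 0.127), and without enterocyte replicate 1 7 and replicate 2 5 (up to 0.149 and 0.0704). The 16 calls became 4 without either E14.5 library, 5 without either ISC library and 3 without enterocyte replicate 1.

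**Figure D5:**
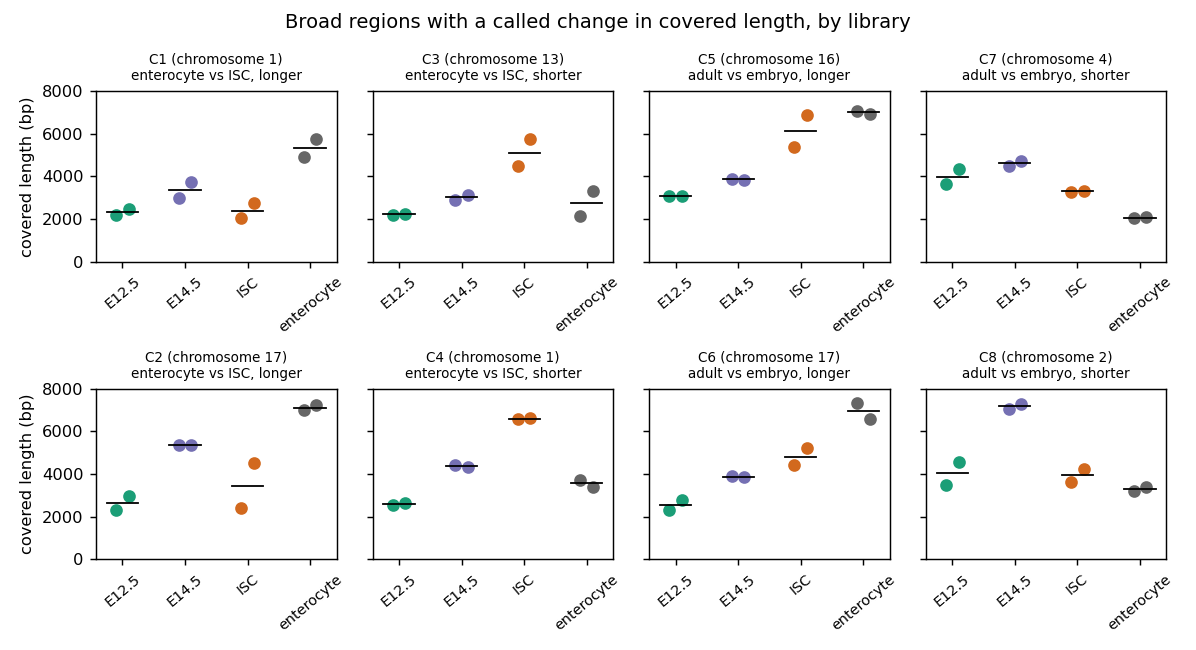
Covered length in bp, unscaled, of 8 broad regions with a called change in enterocytes against ISC (C1 to C4) or in adult against embryonic epithelium (C5 to C8), each with its 8 libraries and a black line at the mean of each group of 2. C1 and C2 are longest in enterocytes, C3 and C4 in ISC libraries, C5 and C6 in the adult libraries, and C7 and C8 in E14.5 libraries.

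Adult and embryonic epithelium were compared with the stages pooled as equal means of their groups, with 4 libraries a side. On the scaled values limma called 30 broad regions longer and 43 shorter in adult epithelium, 6.32% and 9.05%. Over all regions tested 13.7% were longer and 17.8% shorter, and among the other regions called in all 8 libraries 10.2% and 7.79%. The regions tested as a whole include some called in only 2 libraries, whereas the rule's minimum in all 8 limits the changes of broad regions. Against the other regions called in all 8 libraries, the longer share of broad regions was lower and the shorter share higher. In bp, all 4 adult libraries were above all 4 embryonic libraries at 5 broad regions and below them at 11, against 1.61% and 1.57% of the other regions. All 30 and 43 also had the same direction by unscaled group mean. The split was 27 longer and 43 shorter unscaled, 19 and 104 after quantile normalization, and 11 and 0 with peaks of a −log10 q of at least 10. Of all 17679 regions tested, 5098 were called in either direction unscaled and 4920 after quantile normalization, against 5571 in the main setting. The −log10 q filter gave 2072 calls among 12126 regions tested. The outer edges seldom separated adult from embryonic libraries. Both edges lay further out or further in at 0 broad regions, against 0.0978% of the other regions in each direction. Only 1 edge lay further out at 11 broad regions (2.32%, against 3.58% of the other regions) and further in at 40 (8.42%, against 6.03%).

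The chromosome 16 region from 55815818 to 55824222 (C5) led the increases. It was covered over 5378 and 6889 bp in ISC libraries and 7056 and 6937 bp in enterocyte libraries, against 3090 and 3078 bp in E12.5 libraries and 3870 and 3831 bp in E14.5 libraries, a log2 change of 0.86 ± 0.09 (SE, limma, adjusted p = 0.0012). Its 4 adult libraries were all longer than its 4 embryonic ones, and it was 1 peak in every library. The chromosome 17 region from 88035115 to 88042485 (C6) had 4414 and 5198 bp in ISC libraries and 7335 and 6594 bp in enterocyte libraries, against 2313 and 2800 bp in E12.5 libraries and 3925 and 3838 bp in E14.5 libraries (0.81 ± 0.09, adjusted p = 0.0015). In bp its group mean rose from E12.5 to E14.5, to ISC and to enterocytes. After scaling, both E14.5 libraries were below both E12.5 libraries, with a log2 change of -0.09 ± 0.13. By limma that step (adjusted p = 0.72) and enterocytes against ISC (0.068) were not called, and ISC against E14.5 was (0.037). The chromosome 8 region from 118225906 to 118233698 was longest in enterocytes, as given above (0.66 ± 0.11, adjusted p = 0.0076). On chromosome 2 from 180065023 to 180070893 there were 3512 and 4750 bp in ISC libraries and 4374 and 5871 bp in enterocyte libraries, against 2156 and 2609 bp in E12.5 libraries and 3373 and 3839 bp in E14.5 libraries (0.58 ± 0.08, adjusted p = 0.004). The ISC and E14.5 libraries overlapped there in bp and not after scaling. The same held for the chromosome 8 region, with 3624 and 3921 bp in ISC libraries and 3353 and 4404 bp in E14.5 libraries.

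The chromosome 4 region from 126698010 to 126702770 (C7) led the decreases. It was covered over 3281 and 3316 bp in ISC libraries and 2036 and 2094 bp in enterocyte libraries, against 3656 and 4323 bp in E12.5 libraries and 4505 and 4702 bp in E14.5 libraries, a log2 change of -0.69 ± 0.07 (SE, limma, adjusted p = 0.0011). The adult libraries were all shorter than the embryonic ones, and in rank the region stood at 1593 and 2003 in enterocyte libraries, against 62 and 37 in E12.5 libraries. The chromosome 2 region from 29916772 to 29924153 (C8) had 3645 and 4243 bp in ISC libraries and 3183 and 3396 bp in enterocyte libraries, against 3479 and 4582 bp in E12.5 libraries and 7068 and 7265 bp in E14.5 libraries (-0.57 ± 0.07, adjusted p = 0.0019). The chromosome 12 region from 58639187 to 58649143 had 5717 and 6918 bp in ISC libraries and 4029 and 4629 bp in enterocyte libraries, against 6632 and 6029 bp in E12.5 libraries and 9174 and 9395 bp in E14.5 libraries (-0.56 ± 0.10, adjusted p = 0.0115). It was split into 3 peaks in both enterocyte libraries. The chromosome 7 region from 117264202 to 117269218 had 3351 and 4138 bp in ISC libraries and 2343 and 2692 bp in enterocyte libraries, against 3838 and 3864 bp in E12.5 libraries and 4681 and 5007 bp in E14.5 libraries (-0.49 ± 0.07, adjusted p = 0.0031). In these regions of chromosomes 2, 12 and 7 the ISC and E12.5 libraries overlapped in bp. Their adult and embryonic libraries were separate only after scaling.

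With each library left out in turn, 7 of these 8 kept their call. The chromosome 12 region missed the threshold without E14.5 replicate 1 (adjusted p = 0.053) or replicate 2 (0.0531), and the 73 calls became 20 and 19 without those libraries and 49 and 48 without ISC replicate 1 and replicate 2.

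Over the 4 comparisons, 128 broad regions were called in at least 1 and 347 in none. The matching share of the other regions was not computed, so this count is not read as a trait of broad regions. By position, the broad regions were spread over all 19 autosomes. They made up between 3.54% of the regions called in all 8 libraries on chromosome 7 and 8.69% on chromosome 3, where 37 of 426 were broad. Chromosome 10 had 35 of 438 (7.99%) and chromosome 2 had 25 of 700 (3.57%). The nearest neighbour called in all 8 libraries was at a median distance of 68169 bp from a broad region and 38592 bp from one of the other regions, and it lay within 10000 bp for 9.05% and 16.2% of them. Another broad region lay within 50000 bp of 14 broad regions (2.95%) and of 317 other regions (3.88%). These distances leave out regions called in fewer than 8 libraries.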

How the data were processed

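Per the file headers, the deposited values are 1 peak list per library, which the authors called with the broad setting of MACS 2.0.10.20130712 at a q-value of 0.01, replicates not pooled. Tools in the submitters' processing notes are bcl2fastq 1.8.4, Bowtie 1.1.2 and SAMtools 1.2, with mm9 as build. The deposited columns also give, for each peak, a pileup signal, a fold enrichment as a ratio over the input, and a −log10 p-value and −log10 q-value. The 4 input libraries enter only as the authors' controls. A region missing from a list was not reported by the caller at that depth.

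The members and lists were chosen with earlier results of these data known. Covered bp per merged region was divided by a factor per library and tested as log2(covered bp + 200) with limma 3.58.1 in R 4.3.3, over 17679 regions called in at least 2 libraries, all 4 groups in 1 fit with a trended prior (4 residual degrees of freedom). Calls are two-sided, with p adjusted by Benjamini-Hochberg and a threshold of 0.05, and SE is that of the log2 change. Printed bp are unscaled. Ranks, splits and edges were computed with pandas 2.3.3. The limma step was run on simulated lengths for enterocytes against ISC, with only regions called in all 8 libraries. That simulation does not cover the main setting, which includes regions missing from some libraries.

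Named regions are, per comparison, the 4 with the largest change each way among those called whose libraries did not overlap after scaling, and the widest, most and least variable, most split and nearest to the minimum. The planned gene lists need an mm9 annotation and were not used. Alternatives were other pseudocounts, scalings, region filters, peak filters, minima and merge distances, a replicate block, and each library left out. The 10 regions outside the autosomes that meet the minimum were left out by the rule.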

Additional observations from a re-analysis of the deposited data

How the results depend on the processing

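Limits first: peak lists hold no read counts, so depth, enrichment and width cannot be separated at a region, and 2 libraries per group leave few degrees of freedom. Counts below are broad regions called by limma at an adjusted p of 0.05, as longer and shorter. Calls over all regions tested, both directions together, follow for each comparison in the same order of settings. The regions tested were 17679, or 8903 with only regions called in all 8 libraries. They were 12914 in lists of equal number and 12126 with the −log10 q minimum. For E14.5 against E12.5 the 66 calls became 271 without scaling (271 and 0), 4 with quantile normalization (4 and 0), 4 with only regions called in all 8 libraries tested (1 and 3), 26 in lists of equal number (each reduced to the same number of peaks; 3 and 23), 10 with peaks of −log10 q of at least 10 (10 and 0), and 105 with the replicate block (3 and 102). Over all regions tested, the 3018 calls became 8118, 673, 191, 790, 2043 and 3052. For ISC against E14.5 the 10 calls became 59 without scaling (3 and 56), 10 with quantile normalization (5 and 5), 2 with regions called in all 8 libraries (2 and 0), 10 in lists of equal number (6 and 4) and 1 with the −log10 q minimum. The 2606 calls over all regions tested became 3327, 1432, 42, 1265 and 1404. For enterocytes against ISC the 16 calls became 18 without scaling (5 and 13), 42 with quantile normalization (4 and 38), 24 in lists of equal number (12 and 12) and 1 with the −log10 q minimum (0 and 1). The 1330 calls over all regions tested became 1113, 1507, 1536 and 169. For adult against embryonic epithelium the 73 calls became 123 with quantile normalization (19 and 104) and 11 with the −log10 q minimum (11 and 0). The 5571 calls over all regions tested became 4920 and 2072. With each library left out, the counts ranged from 0 to 115 for E14.5 against E12.5, 0 to 13 for ISC against E14.5, 3 to 17 for enterocytes against ISC and 19 to 86 for adult against embryonic epithelium. With the −log10 q minimum 69 regions met the minimum length, in place of 475. The number was 1394 with a minimum of 1500 bp and 87 with 3000 bp, 639 on scaled bp, 469 in lists of equal number, 476 with peaks up to 500 bp apart merged, and 475 to 635 with 1 library left out. The share in 1 peak, on average 93.7% per library, was 98.1% with the −log10 q minimum and 87.9% among regions of at least 3000 bp. Ignoring gaps of up to 500 bp left the share at 93.7%, so few if any gaps were that short and this setting had little to act on. The mean percentile rank of 95.0 was 96.3 among all regions of a library and 95.0 by the widest single peak. Of the 6 named E14.5 against E12.5 regions, those shorter after scaling turned to a log2 change of 0.0249 (chromosome 3), 0.0737 (chromosome 5) and 0.0878 (chromosome 13) without scaling, and to 1.72 (chromosome 8), 1.86, 3.92 and 1.92 with the −log10 q minimum. None of these values was called (limma, adjusted p 0.341 to 0.894 without scaling, 0.226 to 0.48 with the minimum). In E12.5 replicate 1 the strongest peak of broad regions had a median −log10 q of 7.82, under that minimum of 10. Over 28 named changes and 17 alternatives, 343 values kept direction and call, 126 missed the threshold and 7 reversed, and each change missed it under at least 1 alternative. The cause of these shifts was not tested. The labels do not say that replicate numbers pair libraries, and 2 numbers are too few to tell: the correlation of replicate deviations over 8651 regions was positive for all 6 pairs of groups, from 0.05 to 0.24, and above 0.1 for the 3 pairs among E12.5, ISC and enterocytes, in each of which replicate 2 was the deeper library. The replicate block moved the count by over 1.5 times in E14.5 against E12.5 alone, and of the named regions C2 missed the threshold with it (adjusted p = 0.0544).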
